A study of Mus musculus with 3 samples.

Results

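The genes followed here are 10 growth factors, receptors and an endothelial secreted product of the vascular system, chosen by gene symbol from the 28692 genes in the files: Vegfa, Pgf, Angpt1, Angpt2 and Apln, the receptor genes Kdr, Flt1, Tek and Aplnr, and Esm1. Each symbol matched a single row. They were read in single-cell libraries of the stromal vascular fraction of inguinal white fat, the mixture of stromal, vascular and immune cells that remains when adipocytes are removed, from C57BL/6 mice. The CL library came from mice given CL 316,243 intraperitoneally at 1 mg/kg for 3 days. CL 316,243 is an agonist of the β3-adrenergic receptor, and the label CL is used below. The cold library came from mice kept at 4 C for 3 days, and the saline library from the controls. Each treatment had 1 library, with no replicates, so differences below are between libraries, and their intervals cover counting error only. How many animals went into a library, and whether mice in the cold received injections, the sources used here do not say. Mature adipocytes, themselves a source of VEGF-A in fat, are largely lost from this fraction, so the levels below cover the other cells of the tissue.

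VEGF-A, encoded by Vegfa, drives the growth of blood vessels through VEGFR2, the tyrosine kinase receptor encoded by Kdr. VEGFR1, encoded by Flt1, binds VEGF-A and placental growth factor (Pgf) tightly but signals weakly, and its soluble form acts as a trap. Angiopoietin 1 (Angpt1) activates the receptor TIE2 (Tek) and stabilises vessels, whereas angiopoietin 2 (Angpt2) acts on the same receptor depending on context, often as an antagonist. Apelin (Apln) signals through the G protein-coupled receptor APJ (Aplnr), and Esm1, a secreted proteoglycan also called endocan, marks endothelial tip cells. Brown and beige fat are densely vascularised, and β-adrenergic stimulation, which acts through cyclic AMP, is known to induce Vegfa in brown adipocytes.

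The RefSeq promoter table for mouse (GRCm38.p6, 250 bases before to 50 bases after each start) held 9 promoters for 7 of the 10 genes, and Angpt1, Angpt2 and Aplnr had no entry. The promoters of the VEGF receptor genes are shown because those receptors carried most of the UMIs (unique molecular identifiers, each standing for a captured RNA molecule) and differed between libraries. Flt1 is at chr5:147725962-147726261 and Kdr at chr5:75978406-75978705, both on the minus strand. Capitals mark the cyclic AMP response element TGACGTCA, a palindrome that reads the same on both strands:
Flt1: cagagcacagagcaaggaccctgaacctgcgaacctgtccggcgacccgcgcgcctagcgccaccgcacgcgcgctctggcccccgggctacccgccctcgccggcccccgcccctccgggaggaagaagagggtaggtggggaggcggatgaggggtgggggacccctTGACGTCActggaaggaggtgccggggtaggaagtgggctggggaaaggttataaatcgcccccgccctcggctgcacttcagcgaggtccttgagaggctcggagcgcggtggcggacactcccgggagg
Kdr: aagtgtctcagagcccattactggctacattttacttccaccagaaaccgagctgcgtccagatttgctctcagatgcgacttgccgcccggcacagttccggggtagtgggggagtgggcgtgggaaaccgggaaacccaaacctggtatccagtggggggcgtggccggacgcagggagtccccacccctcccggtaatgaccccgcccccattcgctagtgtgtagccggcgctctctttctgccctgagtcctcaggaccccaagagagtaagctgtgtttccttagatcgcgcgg
The Flt1 promoter held 1 such element, starting 81 bases upstream of the start, and the other 8 promoters, Kdr included, held none. Of all 32851 mouse promoters of this length in the table, 588 (1.79%) held the element. The core of the hypoxia response element, ACGTG on either strand, was in 19.6% of all promoters and, among these genes, in 1 of the Vegfa promoters alone. The ETS core GGAA on either strand, bound by a factor family active in endothelium, occurred 4 times in the Flt1 and 5 times in the Kdr promoter, but 96.0% of all promoters held it. These matches describe letters in a window and say nothing of which factors bind there.

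The CL, cold and saline libraries held 7943, 5050 and 7674 barcodes with 29323106, 19899223 and 25875379 UMIs in all. Of these, 6641, 3858 and 6185 cells were kept, with median depths of 3837, 3623 and 3210 UMIs per cell, and 9 to 14 barcodes were shared by each pair of libraries. Clusters were made without the 10 genes and named by other marker genes, with "-like" for the nearest type. Levels are CPM (counts per 1000000) of UMIs pooled within a class and library, with exact Poisson 95% intervals, and a log2 ratio has an exact conditional 95% interval. A gene with at least 20 UMIs in a pair of libraries was counted as past 1.5-fold from a log2 ratio of 0.58 in size. UMIs come from the 3' ends of transcripts and were not divided by length, so levels are compared for each gene with itself. B-like cells, which should lack these genes, gave the background from free RNA.

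Kdr and Flt1 UMIs lay mostly in endothelial-like cells, and Angpt1 and Pgf UMIs mostly in stromal cells. Endothelial-like cells, of which there were 258, 236 and 295 in the CL, cold and saline libraries, held 62.6%, 81.1% and 68.1% of all Kdr UMIs and 66.4%, 76.3% and 78.1% of all Flt1 UMIs. All 7 endothelial markers, Pecam1 and Cdh5 among them, were present in that class in each library, at a summed level of 7325, 7363 and 7320 CPM. ASPC-like cells (adipose stem and progenitor-like, with Pdgfra and Dcn) held 94.3%, 89.7% and 89.1% of Angpt1 UMIs and 73.7%, 83.3% and 82.1% of Pgf UMIs. They also held 60.2%, 45.0% and 71.5% of Vegfa UMIs. Tek, although the receptor for the angiopoietins, had more UMIs in ASPC-like cells (71.8%, 67.4% and 76.2%) than in endothelial-like cells (20.3%, 25.1% and 17%). These shares move with how many cells of each class a library held.

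Against the background, Vegfa was detected in more classes than the other 9 genes in cold and saline. Its lower Poisson bound lay above the upper bound of B-like cells in 4, 7 and 7 of 10 classes in the CL, cold and saline libraries. B-like cells had the fewest UMIs in the CL library, so the bound was less exact there and these counts are not compared between libraries. Tek passed that mark in 3 of 10 classes in each library: the ASPC-like, endothelial-like and pericyte/smooth muscle-like cells. Kdr passed it in 4 classes in each library, the conventional and plasmacytoid dendritic-like cells as well as both vessel classes. Pgf, Aplnr and Esm1 passed it in 2 classes in each library. Apln, at 22, 9 and 10 UMIs over all cells of the CL, cold and saline libraries, passed it only in 1 class of the cold library.

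**Figure D1:**
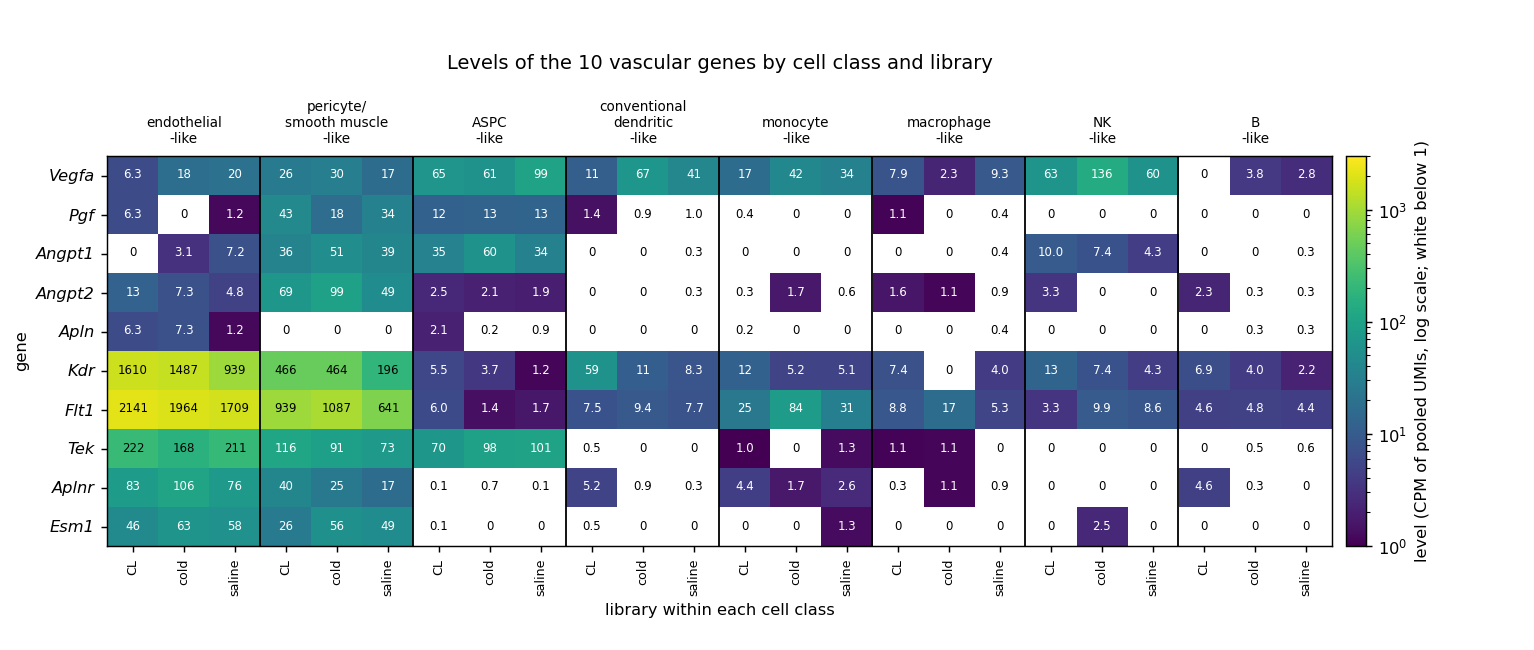
Level of each of the 10 genes (rows) in 8 cell classes, each with its CL, cold and saline library (columns), in CPM of pooled UMIs on a log colour scale; the printed values are CPM. Kdr and Flt1 are highest in endothelial-like cells. Angpt1 is highest in ASPC-like and pericyte/smooth muscle-like cells, and Vegfa is spread over stromal and immune classes. No gene is above 6.86 CPM in B-like cells.

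In endothelial-like cells Kdr was higher in both treated libraries than in saline. It had 1023, 1418 and 780 UMIs in the CL, cold and saline libraries, or 1610, 1487 and 939 CPM. Its log2 ratio was 0.78 for CL over saline (95% interval 0.64 to 0.91) and 0.66 for cold over saline (0.54 to 0.79). CL over cold gave 0.11. A Kdr UMI was found in 90.7%, 86.9% and 71.9% of endothelial-like cells, against 1.28%, 1.15% and 0.431% of B-like cells. Median depths in the CL, cold and saline libraries were 2041.5, 3095.5 and 2235 UMIs in endothelial-like cells and 1570, 2464 and 1696 in B-like cells. After each cell was thinned to 1500 UMIs, the shares of endothelial-like cells were 82.7% of 191, 76.9% of 216 and 56.3% of 222 cells, so the gap to saline was present at equal depth too.

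Flt1 differed less. It had 1360, 1872 and 1419 UMIs, or 2141, 1964 and 1709 CPM, in the CL, cold and saline libraries, with log2 ratios of 0.33 for CL over saline and 0.20 for cold over saline, both under 1.5-fold. The balance of the receptors differed accordingly, since Kdr made up 42.9%, 43.1% and 35.5% of the Kdr and Flt1 UMIs of the class (exact intervals 40.9% to 44.9%, 41.4% to 44.8% and 33.5% to 37.5%). The CL and cold intervals overlapped, and both lay above the saline interval. This balance is pooled over the class. Its sub-clusters differed in Kdr and Flt1 levels and in their share of each library, as given below. Their part in the balance was not tested.

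Tek, encoding the angiopoietin receptor, was at 222, 168 and 211 CPM in endothelial-like cells of the CL, cold and saline libraries, with log2 ratios of 0.07 for CL over saline and −0.33 for cold over saline. The apelin receptor gene Aplnr had 53, 101 and 63 UMIs (83.4, 106 and 75.9 CPM), with log2 ratios of 0.14 and, for cold over saline, 0.48 (0.01 to 0.96). Esm1 had 29, 60 and 48 UMIs in 12, 11 and 21 cells, and the 3 richest cells held 17, 42 and 15 of them, so its log2 ratios of −0.34 and 0.12 rest on few cells. Every endothelial-like cell with an Esm1 UMI also had a Kdr UMI (12 of 12, 11 of 11 and 21 of 21 cells), against 90.2%, 86.2% and 69.7% of the cells without Esm1. The cells with Esm1 were deeper, with medians of 3793, 5759 and 3296 UMIs against 2010.5, 2974 and 2127.

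The ligands were scarce in the endothelium itself. Vegfa had 4, 17 and 17 UMIs in endothelial-like cells of the CL, cold and saline libraries, or 6.30, 17.8 and 20.5 CPM, a log2 ratio of −1.70 for CL over saline and −1.50 for CL over cold on those few counts. Angpt2 had 8, 7 and 4 UMIs, Apln 4, 7 and 1, Pgf 4, 0 and 1, and Angpt1 0, 3 and 6. Counted over the class, 2 of the 6 genes with enough UMIs were past 1.5-fold for CL over saline (Kdr higher, Vegfa lower), beside 28.1% of all genes. It was 1 of 6 for cold over saline (Kdr) beside 26.6%, and 1 of 6 for CL over cold (Vegfa) beside 21.8%. The genes' median log2 ratios were 0.11, 0.16 and −0.12, beside −0.01, 0.01 and −0.02 over all genes.

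**Figure D2:**
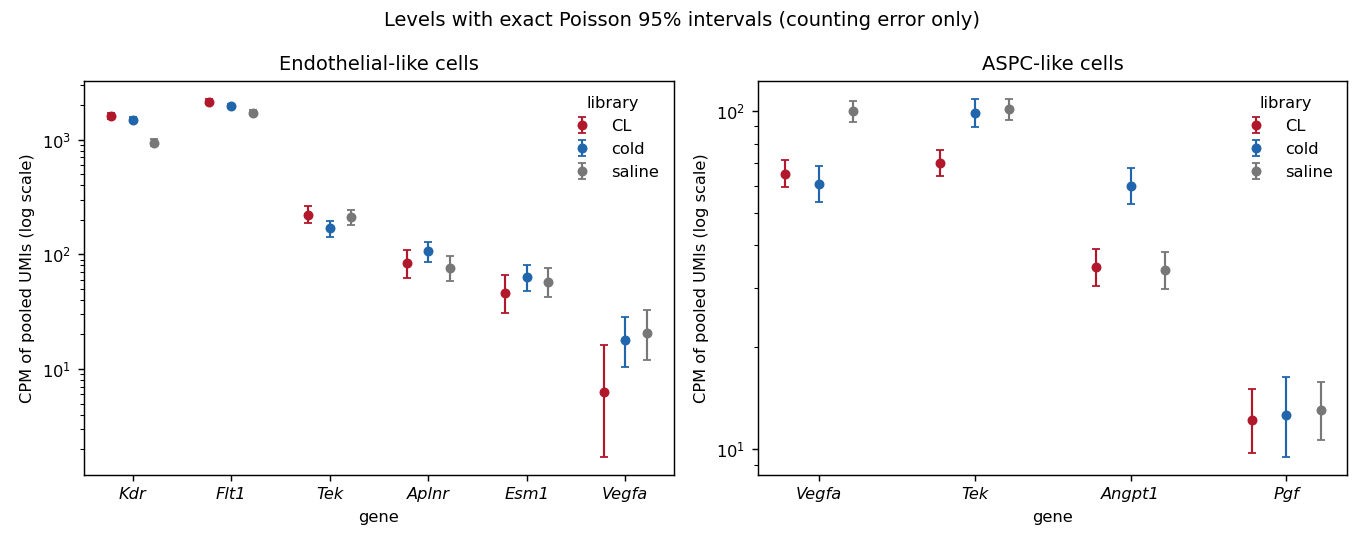
Levels (CPM of pooled UMIs, log scale) of the genes with most UMIs in endothelial-like cells (left) and ASPC-like cells (right), with a point per library (CL red, cold blue, saline grey) and exact Poisson 95% intervals. Kdr is lowest in saline among endothelial-like cells, while among ASPC-like cells Vegfa is highest in saline and Angpt1 highest in cold.

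Within the endothelium the Kdr difference depended on how cells were pooled. The class had a pair of clusters. In the larger (227, 197 and 228 cells, led by the capillary genes Fabp4 and Gpihbp1) Kdr was at 1591, 1469 and 815 CPM in the CL, cold and saline libraries, with log2 ratios of 0.97 (0.80 to 1.13) and 0.85 (0.69 to 1.01) over saline. In the smaller (31, 39 and 67 cells, led by Plvap, Lrg1 and Vwf) it was at 1710, 1544 and 1250 CPM, with log2 ratios of 0.45 (0.17 to 0.73) and 0.31 (0.08 to 0.53). Esm1 was almost confined to the smaller cluster, with 26 of 29, 60 of 60 and 43 of 48 UMIs.

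Finer sub-clusters, made over the endothelial-like and lymphatic endothelial-like cells together, differed in their receptor levels. Kdr was high in capillary-like sub-cluster 1 (1773, 1594 and 1336 CPM in the CL, cold and saline libraries), lower in arterial-like sub-cluster 3 (746, 690 and 519 CPM) and low in venous-like sub-cluster 8 (79.0, 268 and 253 CPM on 1, 17 and 24 UMIs). Flt1 ran otherwise, with 2178, 2383 and 2610 CPM in the arterial-like cells and 1616, 1513 and 1123 CPM in the capillary-like ones. Unnamed sub-cluster 4, led by Col13a1, Esm1 and Plvap, had the most Esm1 (296, 461 and 368 CPM) together with high Kdr (1936, 2236 and 2187 CPM), and there the Kdr intervals of the 3 libraries overlapped. Aplnr was at 202, 273 and 171 CPM in capillary-like sub-cluster 1. Lymphatic-like sub-cluster 7, with 12 cold and 32 saline cells but 2 CL cells, had Kdr at 688 CPM in cold and 660 CPM in saline. Its Flt1 was lower, at 295 CPM in cold and 42.8 CPM in saline.

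The mix of the sub-clusters differed between libraries. Sub-cluster 0 was 11.2%, 9.75% and 29.2% of endothelial-like cells in the CL, cold and saline libraries. Sub-cluster 2 was 17.8%, 21.2% and 6.44% of them. Venous-like sub-cluster 8 made up 1.94%, 5.51% and 9.15% of endothelial-like cells in the CL, cold and saline libraries, and the arterial-like sub-cluster 10, which had 242 CPM of Kdr in saline, 1.16%, 1.27% and 9.83%. Sub-cluster 5, led by interferon-response genes, was 27.5% of the CL cells and at most 1.69% elsewhere. An alternative added after the data were seen weighted equally the 5 sub-clusters that had at least 10 cells in each library. It left out sub-clusters 5, 8 and 10 described above, among others, so it covers only part of the class. Kdr then came to 1560, 1622 and 1371 CPM in the CL, cold and saline libraries. Its log2 ratios were then 0.19 for CL over saline and 0.24 for cold over saline, both under 1.5-fold. Barcodes with at least 1000 genes alone gave 1.38 and 1.31, and the mean CPM over cells gave 0.57 for cold over saline, just under 1.5-fold.

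**Figure D3:**
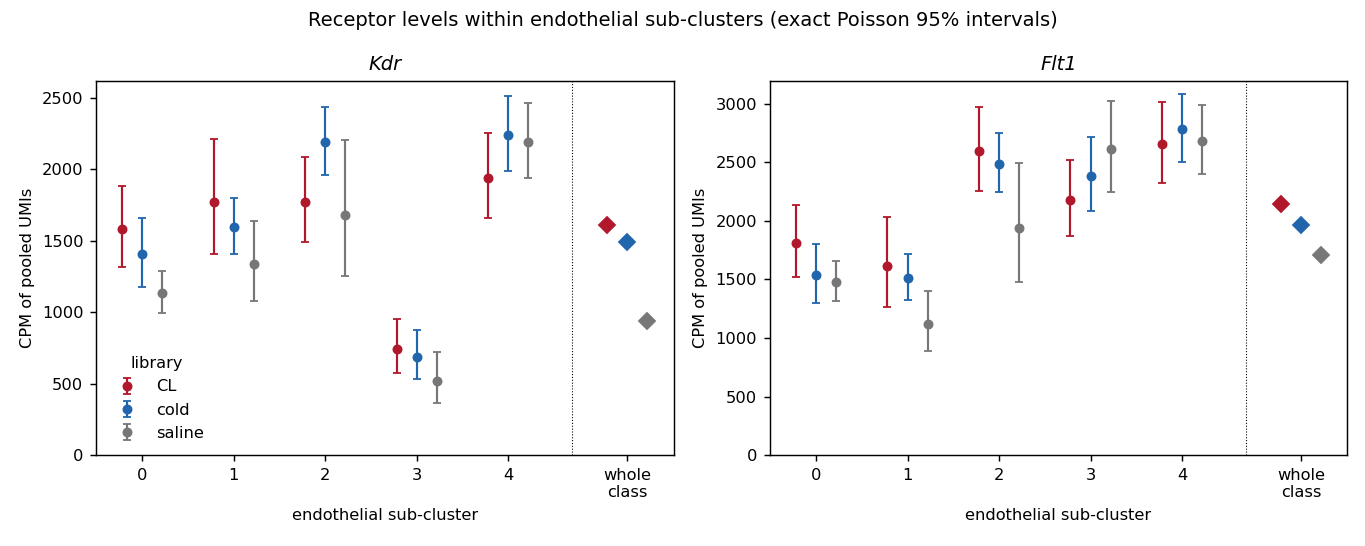
Kdr (left) and Flt1 (right) in CPM of pooled UMIs in endothelial sub-clusters 0 to 4, with exact Poisson 95% intervals, and in the whole class (diamonds), for the CL (red), cold (blue) and saline (grey) libraries. The whole-class gap between treated and saline libraries for Kdr is wider than the gap within sub-clusters 0 to 4, where the saline interval overlaps that of a treated library.

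Other genes of these pathways in endothelial-like cells were counted by lists. Of the other VEGF and angiopoietin pathway genes, 0 of 9 were past 1.5-fold higher and 3 lower for CL over saline, with a median log2 ratio of −0.42 beside −0.01 over all genes. The counts were the same for cold over saline, with a median of −0.39. Over all genes tested in this class, 12.0% were past 1.5-fold higher and 16.1% lower for CL over saline, and 12.9% and 13.7% for cold over saline, which is the background for each list here. Angptl4, a lipoprotein lipase inhibitor, was at 266, 184 and 468 CPM in the CL, cold and saline libraries, and the lymphatic growth factor gene Vegfc at 37.8, 27.3 and 57.8 CPM. Tie1, the orphan partner of TIE2, was at 285, 252 and 222 CPM and did not pass 1.5-fold. Nrp1, the VEGF co-receptor gene, was at 1485, 1386 and 1396 CPM.

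Of the tip and sprouting genes, 5 of 17 were past 1.5-fold higher and 3 lower for CL over saline, and 3 of 19 higher and 3 lower for cold over saline. Col4a2, a basement membrane collagen, was at 770, 592 and 365 CPM, and Igfbp3 at 69.3, 102 and 166 CPM in the CL, cold and saline libraries. Among Notch genes, 0 of 9 were higher and 4 lower for CL over saline, and 0 higher and 1 lower for cold over saline, with Jag1 at 42.5, 52.4 and 83.1 CPM. Among other angiogenic factors, Cxcl12 was at 2520, 1786 and 1105 CPM and Thbs1, an inhibitor of vessel growth, at 12.6, 14.7 and 51.8 CPM.

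Of the immediate early genes, which cell isolation is known to induce, 15 of 16 were past 1.5-fold lower for CL over saline and 14 of 16 for cold over saline, with medians of −1.13 and −0.98. Atf3 was at 88.2, 92.3 and 594 CPM in the CL, cold and saline libraries. Their part in the Kdr difference was not tested. Of the hypoxia response genes, 2 of 15 were higher and 4 lower for CL over saline, and 1 higher and 3 lower for cold over saline. Markers of other cells in the endothelial-like class summed to 294, 125 and 176 CPM for 8 pericyte/smooth muscle markers, 214, 260 and 178 CPM for 7 ASPC markers and 203, 401 and 167 CPM for 5 adipocyte markers. Without cells holding a Ptprc or Pdgfra UMI, the Kdr log2 ratios over saline were 0.76 for CL and 0.71 for cold.

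Among stromal cells, Vegfa was lower in both treated libraries and Angpt1 was higher in cold. ASPC-like cells numbered 1072, 594 and 1220 in the CL, cold and saline libraries. Vegfa had 466, 266 and 771 UMIs there, or 65.2, 60.9 and 99.5 CPM. Its log2 ratio was −0.61 for CL over saline (−0.78 to −0.44) and −0.71 for cold over saline (−0.91 to −0.50). A Vegfa UMI was found in 31.5%, 31.8% and 40.6% of ASPC-like cells at median depths of 6523, 7439.5 and 6419.5 UMIs, and in 9.91%, 7.68% and 14% after thinning. In B-like cells the shares were 0%, 1.01% and 0.555%.

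Angpt1 had 247, 262 and 262 UMIs in ASPC-like cells, or 34.6, 60.0 and 33.8 CPM in the CL, cold and saline libraries. The log2 ratio was 0.83 for cold over saline (0.58 to 1.08), 0.03 for CL over saline and −0.80 for CL over cold. Cells with an Angpt1 UMI made up 19.2%, 31.5% and 17.5%, and 6.01%, 9.90% and 4.47% after thinning, so cold was highest at equal depth as well. B-like cells held 0, 0 and 1 Angpt1 UMIs.

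The level of Tek in ASPC-like cells was 70.0, 98.5 and 101 CPM on 500, 430 and 783 UMIs in the CL, cold and saline libraries, with log2 ratios of −0.53 for CL over saline and −0.04 for cold over saline. B-like cells held 0, 2 and 2 Tek UMIs. Pgf, a ligand of VEGFR1, was at 12.2, 12.6 and 13 CPM, with log2 ratios of −0.10 and −0.05 over saline. Angpt2, at 18, 9 and 15 UMIs, came almost wholly from a single cluster (17, 8 and 15 UMIs in cluster 14, led by Gdf10 and Fmo2).

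In ASPC-like cells 4 of the 8 genes with enough UMIs were past 1.5-fold for CL over saline, beside 23.1% of all genes. Of these, Kdr, Flt1 and Apln were higher, and for none of them did the lower Poisson bound lie above the upper bound of B-like cells in any library. For cold over saline it was 3 of 6 (Angpt1 and Kdr higher, Vegfa lower) beside 15.6%, and for CL over cold 2 of 7 beside 23.2%. Medians were 0.21, 0.03 and 0.10, beside 0.07, 0.08 and −0.01 over all genes.

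The stromal clusters had distinct profiles. Cluster 3 (230, 326 and 664 cells), led by Pi16, carried most Tek, at 129, 154 and 151 CPM in the CL, cold and saline libraries, whereas cluster 7 (315, 158 and 359 cells), led by Col5a3 and Col15a1, had 37.4, 33.8 and 46.8 CPM and cluster 14 had 12.3, 29.7 and 25.4 CPM. Cluster 13 (405, 0 and 39 cells), led by Timp1, Prg4 and Lbp, was nearly all from CL and had 87.9 CPM of Tek in CL and 93.8 CPM in saline. A Pgf UMI was more frequent in ASPC-like cells with a Tek UMI (9.86%, 12.6% and 9.16%) than in those without (5.44%, 4.40% and 4.24%). For Angpt1 it was 18.3%, 27.7% and 14.4% in cells with Tek and 19.7%, 34.3% and 19.8% in those without.

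Vegfa and Angpt1 moved unequally among these clusters. Vegfa in cluster 7 was at 59.5, 96.4 and 132 CPM in the CL, cold and saline libraries, a log2 ratio of −1.15 for CL over saline (−1.45 to −0.85) and −0.45 for cold over saline (−0.77 to −0.14). Vegfa in cluster 3 was at 72.1, 49.6 and 87.0 CPM, with −0.27 (−0.62 to 0.07) and −0.81 (−1.12 to −0.51), so in the largest stromal cluster the CL difference was under 1.5-fold. Cluster 14 had Vegfa at 59.0, 40.1 and 87.4 CPM. All 3 clusters had less Vegfa in CL and in cold than in saline, the interval for CL in cluster 3 reaching past 0.

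Angpt1 in cluster 3 was at 46.7, 48.4 and 21.9 CPM in the CL, cold and saline libraries, with log2 ratios of 1.10 for CL over saline (0.59 to 1.59) and 1.14 for cold over saline (0.73 to 1.56). The ratio of CL over cold in this cluster was −0.05, against −0.80 over the class. Cluster 7 had 45.6, 70.0 and 50.2 CPM and cluster 14 had 46.7, 80.1 and 52.9 CPM. Cluster 13, with 16.7 CPM in CL and 6.70 CPM in saline, was low, and it supplied 405 of the 1072 ASPC-like cells of the CL library.

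The pericyte/smooth muscle-like cells numbered 57, 51 and 84 in the CL, cold and saline libraries and had all 8 of their markers, at 8255, 5414 and 10022 CPM. All 7 endothelial markers were present too, summing to 3541, 3767 and 2529 CPM, and their part in the values below was not tested beyond the split given here. Kdr was at 466, 464 and 196 CPM, with log2 ratios of 1.25 (0.85 to 1.67) for CL over saline and 1.24 (0.86 to 1.64) for cold over saline, or 0.42 and 0.56 at Leiden resolution 0.5. Flt1 was at 939, 1087 and 641 CPM, with 0.55 and 0.76, and Tek at 116, 91.2 and 73.4 CPM, with 0.66 and 0.31. In the 7, 5 and 18 cells without any endothelial marker UMI, a split added after the data were seen, there were 0, 0 and 2 Kdr UMIs, 3, 0 and 0 Flt1 UMIs and 0, 0 and 1 Tek UMIs. Those cells held only 23221, 14490 and 53924 UMIs in all. The upper Poisson bound for Kdr in them was 159, 255 and 134 CPM in the CL, cold and saline libraries.

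Angpt2, known from endothelial cells and smooth muscle, had 21, 39 and 20 UMIs in this class, or 69.4, 98.8 and 48.9 CPM in the CL, cold and saline libraries, against 12.6, 7.34 and 4.82 CPM in endothelial-like cells. The log2 ratio was 1.01 for cold over saline (0.20 to 1.87), but the 3 richest cold cells held 17 of the 39 UMIs. It was −0.21 with at most 10% mitochondrial UMIs and −0.53 with at least 1000 genes per barcode. The cells without endothelial markers held 3, 1 and 3 Angpt2 UMIs. Angpt1 was at 36.4, 50.7 and 39.1 CPM and Pgf at 43.0, 17.7 and 34.2 CPM, on 7 to 20 UMIs each. Past 1.5-fold were 3 of 7 genes for CL over saline, 4 of 7 for cold over saline and 3 of 9 for CL over cold, beside 33.7%, 34.3% and 25.4% of all genes. Medians were 0.50, 0.37 and −0.20, beside 0.05, 0.09 and −0.03 over all genes. Among the cells without endothelial markers, 0 genes were past 1.5-fold in each comparison, since none reached 20 UMIs.

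Among conventional dendritic-like cells, Vegfa was lower and Kdr higher in the CL library than in saline. Vegfa in that class, of 454, 296 and 540 cells, had 24, 142 and 128 UMIs in the CL, cold and saline libraries, or 11.3, 66.8 and 41.0 CPM. The log2 ratio was −1.86 for CL over saline (−2.55 to −1.22) and 0.70 for cold over saline (0.35 to 1.06), or 0.39 for cold with the mean CPM over cells. Cells with a Vegfa UMI made up 4.63%, 19.9% and 12%, and 1.81%, 9.03% and 7.28% after thinning. Over all 9 alternatives the CL ratio stayed between −2.38 and −1.54.

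Kdr in the same class had 125, 23 and 26 UMIs, or 58.8, 10.8 and 8.33 CPM in the CL, cold and saline libraries, against 6.86, 4.04 and 2.22 CPM in B-like cells. The log2 ratio was 2.82 for CL over saline (2.20 to 3.49) and 0.38 for cold over saline, and over the alternatives the CL ratio lay between 2.69 and 3.38. Past 1.5-fold were 2 of 3 genes for CL over saline, 1 of 3 for cold over saline and 2 of 3 for CL over cold, beside 25.5%, 18.0% and 23.4% of all genes. The median log2 ratios of the 3 genes were −0.03, 0.38 and −0.32, beside 0.05, 0.05 and 0.00 over all genes.

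These UMIs came from dendritic cluster 8, led by Cd209a and major histocompatibility class II genes (308, 194 and 324 cells). It held 120 of 125, 20 of 23 and 21 of 26 of the Kdr UMIs, in 61, 12 and 13 cells, or 19.8%, 6.19% and 4.01% of its cells and 10.7%, 3.14% and 1.24% after thinning. The 3 richest CL cells held 26 of the 120 UMIs. Cluster 16, led by Xcr1, had 1, 3 and 3 Kdr UMIs. Vegfa in cluster 8 was at 15.5, 119 and 80.5 CPM, against 3.70, 1.59 and 2.45 CPM in cluster 16.

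Kdr in cluster 8 of the CL library came with little Flt1. The cluster had 9, 12 and 16 Flt1 UMIs, so Kdr made up 93%, 62.5% and 56.8% of the pair in the CL, cold and saline libraries, against 42.9%, 43.1% and 35.5% in endothelial-like cells. In CL, an endothelial marker UMI was in 19.7% of the cluster 8 cells with Kdr (exact interval 10.6% to 31.8%) and 13% of those without (9.03% to 17.8%), and a Flt1 UMI in 1.64% and 2.43%. Plasmacytoid dendritic-like cells (85, 74 and 146 cells) had Kdr at 81.3, 49.9 and 47.4 CPM, in 18.8%, 16.2% and 15.8% of cells, with 1, 7 and 2 Flt1 UMIs.

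NK-like cells (74, 101 and 79 cells) had Vegfa at 63.2, 136 and 59.9 CPM on 19, 55 and 14 UMIs in the CL, cold and saline libraries. The log2 ratio was 1.19 for cold over saline (0.32 to 2.15), 0.08 for CL over saline and −1.11 for CL over cold. Vegfa was the only one of the 10 genes with enough UMIs there. The shares of all genes past 1.5-fold in this small class were 30.2% for cold over saline, 44.2% for CL over saline and 37.8% for CL over cold, with median log2 ratios of −0.02, 0.13 and 0.16.

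**Figure D4:**
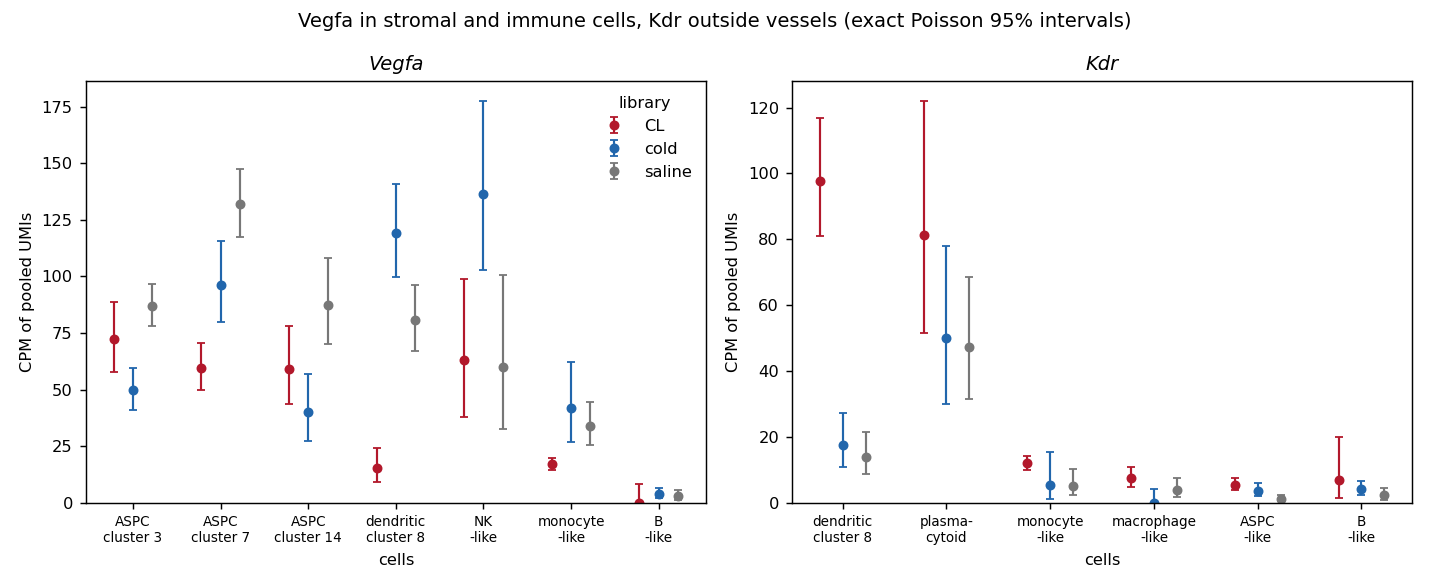
Vegfa (left) in 3 ASPC clusters, dendritic cluster 8 and NK-like, monocyte-like and B-like cells, and Kdr (right) in cells outside vessels, in CPM of pooled UMIs with exact Poisson 95% intervals for the CL (red), cold (blue) and saline (grey) libraries. In dendritic cluster 8 Vegfa is lowest in CL and Kdr is highest in CL, and Vegfa in NK-like cells is highest in cold.

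Monocyte-like cells (2771, 151 and 456 cells) had Flt1, which encodes the VEGF receptor of monocytes, at 24.9, 83.8 and 31.3 CPM in the CL, cold and saline libraries, on 244, 48 and 49 UMIs. The log2 ratio was 1.42 for cold over saline (0.81 to 2.02) and −0.33 for CL over saline, and 7.43%, 21.9% and 7.89% of cells had a Flt1 UMI. Different clusters held most of the class, cluster 5 (led by Chil3; 690, 129 and 135 cells) in cold and clusters 2 and 4 in CL. Within cluster 5 Flt1 was at 48.1, 98.6 and 52.9 CPM, a log2 ratio of 0.90 for cold over saline (0.13 to 1.70). In cluster 2, with 19 cold cells, it was 0.07, and at Leiden resolution 2 it was 0.19 over the class. With at least 1000 genes per barcode it was 4.58.

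Vegfa in monocyte-like cells was at 16.9, 41.9 and 33.9 CPM in the CL, cold and saline libraries, a log2 ratio of −1.0 for CL over saline (−1.45 to −0.53) and 0.31 for cold over saline. Kdr in these cells had 117, 3 and 8 UMIs, or 11.9, 5.23 and 5.11 CPM. Mature dendritic-like cells had 16, 8 and 13 Kdr UMIs (31.1, 6.07 and 7.10 CPM). Kdr in B-like cells was at 6.86, 4.04 and 2.22 CPM. In neither of the former classes did its lower Poisson bound lie above the B-like upper bound in any library. Past 1.5-fold in monocyte-like cells were 3 of 4 genes for CL over saline beside 23.4% of all genes. For cold over saline it was 1 of 2 beside 31.3%, and for CL over cold 4 of 4 beside 43.2%. The medians of the counted genes were 0.22, 0.86 and −0.06, beside 0.03, −0.04 and 0.05 over all genes. Kdr and Aplnr were counted as higher in both comparisons with CL. Aplnr had 43, 1 and 4 UMIs in the CL, cold and saline libraries, and it too stayed within the B-like bound in each. Both genes reached the UMI minimum only in pairs with CL, where they were highest. The counts with CL therefore cannot be weighed against the shares of all genes. Macrophage-like cells (888, 205 and 712 cells) had little of any of the 10 genes: Vegfa had 29, 2 and 21 UMIs, Kdr 27, 0 and 9, and Flt1 32, 15 and 12. For Flt1 in cold, 13 of the 15 UMIs lay in 3 cells. Past 1.5-fold were 2 of 3, 2 of 2 and 3 of 3 genes for CL over saline, cold over saline and CL over cold, beside 36.8%, 22.1% and 42.7% of all genes. The medians were 0.73, −0.18 and 1.13, beside 0.10, 0.02 and 0.08, and the 1.13 is Kdr itself with its 0 cold UMIs set to 3. For Kdr the lower Poisson bound lay above the B-like upper bound in no library, for Vegfa only in saline and for Flt1 only in cold. Vegfa and Kdr reached the UMI minimum for CL over cold through their CL UMIs. Vegfa reached it for cold over saline through its saline UMIs. The macrophage-like counts past 1.5-fold therefore cannot be weighed against the shares of all genes. The class was held by cluster 11 in CL and cluster 6 in cold and saline.

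Among the ASPC-like, NK-like, conventional dendritic-like and monocyte-like classes alone, Vegfa in saline was highest in ASPC-like cells (99.5 CPM), followed by NK-like (59.9), conventional dendritic-like (41.0) and monocyte-like cells (33.9), and the NK-like interval of 32.8 to 101 CPM overlapped all 3 of these. Among the same 4 classes cold had the order NK-like (136), conventional dendritic-like (66.8), ASPC-like (60.9) and monocyte-like cells (41.9), with overlapping intervals from the dendritic-like class on. In CL the ASPC-like (65.2) and NK-like cells (63.2) were the highest of the 4, with overlapping intervals, and monocyte-like (16.9) and conventional dendritic-like cells (11.3) followed.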

How the data were processed

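Single-cell RNA libraries (10x Chromium 3' v3) of inguinal stromal vascular cells, 1 each for CL, cold and saline, were analysed. The deposited values are raw UMI counts per gene and barcode, made with Cell Ranger 3.0.2 per the file headers, and the submitters' processing notes name the build mm10. Annotation and cell calling are not given in the sources used here. All 3 matrices were used, with 0 further columns of per-sample values.

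Barcodes with under 500 genes (1147, 1007 and 1283 in the CL, cold and saline libraries) or over 15% UMIs of mitochondrial genes (91, 181 and 120) were dropped. Scrublet in scanpy 1.11.5 removed 64, 4 and 86 doublets at its automatic limits of 0.323, 0.373 and 0.292, so doublets may remain in cold; free RNA was not subtracted. Cells were clustered over the libraries together (2000 variable genes without the 10 genes, 30 principal components, 15 neighbours, Leiden 0.10.2 at resolution 1, seed 1, no batch integration). A cluster was named from fixed markers of 24 classes when at least 3 markers reached 50 CPM and a log2 fold of 1 over other cells (pseudocount 20 CPM) and other classes' markers did not outnumber its own among its 10 top genes. A cluster with no own marker there had to score 1.5 times its next class. Unnamed clusters held 384, 83 and 25 cells. Sub-clusters of the endothelial-like and lymphatic endothelial-like cells were named likewise.

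UMIs were summed per class and library, with exact Poisson, Clopper-Pearson and conditional binomial 95% intervals (scipy 1.17.1, numpy 2.4.6). A library at 0 took a floor of 3 counts. With 1 library per group no test was run. The code was tested on simulated counts. Genes named were all 10 members, the extremes of each pathway list (a selection is printed) and the genes most alike in profile; members and lists were chosen with earlier results of these data known. Alternatives changed doublets, filters, resolution, pooling, scaling, count minimum and fold.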

Additional observations from a re-analysis of the deposited data

Results flagged for a closer look

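Vegfa differed in opposite directions between cell classes under the same contrast. For cold over saline its log2 ratio was 1.19 in NK-like cells and 0.70 in conventional dendritic-like cells, and −0.71 in ASPC-like cells. Each value compares 1 cold with 1 saline library, and the difference between the classes was not tested. In dendritic cluster 8 the level was 119 CPM in cold and 80.5 CPM in saline, while in each of the ASPC clusters 3, 7 and 14 it was lower in cold than in saline. Over the alternatives the ratio was 0.85 to 1.40 in NK-like, 0.39 to 0.74 in conventional dendritic-like and −0.81 to −0.69 in ASPC-like cells.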

How the results depend on the processing

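No paired analysis was possible because each treatment had 1 library. Counts of genes past 1.5-fold rest on at most 9 genes and changed by over 1.5 times in 58 of 153 recomputed values, whereas of 561 recomputed log2 ratios 481 stayed within the 95% interval of the value reported, 76 moved beyond it and 4 that had been past 1.5-fold changed sign. Comparisons are given here as CL over saline, cold over saline and CL over cold, and the cause of each change was not tested.

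In endothelial-like cells the counts were 2, 1 and 1 of 6 genes. CL over saline gave 1 of 4 at Leiden resolution 0.5 and in the largest cluster alone, and 1 of 5 at 50 UMIs. It gave 1 of 6 at a fold of 2 and with sub-clusters weighted equally, and 6 of 10 without a count filter. Cold over saline gave 2 of 7 with at most 10% mitochondrial UMIs, and 2 of 5 with at least 1000 genes, resolution 0.5 or the largest cluster alone. It gave 2 of 6 without the 3 richest cells, 5 of 10 without a count filter and 0 of 6 at a fold of 2. CL over cold gave 2 of 6 with doublets kept, 2 of 7 with at most 10% mitochondrial UMIs and 4 of 10 without a count filter. It gave 0 of 4 with at least 1000 genes, resolution 0.5 or the largest cluster alone. At 50 UMIs, without the 3 richest cells or without cells holding Ptprc or Pdgfra it gave 0 of 5.

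In ASPC-like cells the counts were 4 of 8, 3 of 6 and 2 of 7 genes. CL over saline gave 1 of 4 in the largest cluster alone, 2 of 8 for the mean CPM over cells and 2 of 5 at 50 UMIs. Cold over saline gave 5 of 9 without a count filter and 1 of 6 at a fold of 2. CL over cold gave 1 of 5 in the largest cluster alone or at 50 UMIs, 1 of 7 at a fold of 2 and 5 of 10 without a count filter.

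In pericyte/smooth muscle-like cells the counts were 3 of 7, 4 of 7 and 3 of 9 genes. CL over saline gave 6 of 9 with doublets kept and 5 of 9 without a count filter. It gave 1 of 4 without the 3 richest cells and 1 of 7 at a fold of 2, where cold over saline gave 2 of 7. CL over cold gave 1 of 4 with at most 10% mitochondrial UMIs, 1 of 3 with at least 1000 genes, and 0 of 4 without the 3 richest cells or at 50 UMIs. Without cells holding an endothelial marker, no gene could be counted in any of the 3 comparisons. In macrophage-like cells the counts were 2 of 3, 2 of 2 and 3 of 3 genes. CL over saline gave 1 of 3 with doublets kept, at most 10% mitochondrial UMIs or centring on the median gene. It gave 0 of 1 at 50 UMIs, 0 of 3 at a fold of 2 and 7 of 9 without a count filter. In the largest cluster alone no gene could be counted. Cold over saline gave 1 of 2 with doublets kept, 1 of 1 in the largest cluster alone and 5 of 9 without a count filter. Without the 3 richest cells or at 50 UMIs no gene could be counted. CL over cold gave 5 of 7 without a count filter, and no gene could be counted in the largest cluster alone or at 50 UMIs.

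Of the log2 ratios past 1.5-fold, those that changed sign were Angpt2 in pericyte/smooth muscle-like cells for cold over saline (−0.21 with at most 10% mitochondrial UMIs and −0.53 with at least 1000 genes) and, in the largest monocyte-like cluster alone, Vegfa (0.37) and Flt1 (0.22) for CL over cold. Ratios under 1.5-fold changed sign more often: Esm1 in endothelial-like cells ranged from −1.07 to 0.46 for cold over saline, keeping its sign in 6 of 11 alternatives, and Vegfa in monocyte-like cells from −1.48 to 4.30, in 6 of 9. Kdr in endothelial-like cells kept its sign under all 11 alternatives, at 0.19 to 1.38 for CL over saline and 0.24 to 1.31 for cold over saline. Depth limits Apln, Angpt2, Esm1 and the small classes most.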

Other observations

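A cluster left unnamed, led by the interferon-response genes Rsad2, Ifit2 and Cxcl10, had 382, 0 and 7 cells in the CL, cold and saline libraries. In CL it held 98 Kdr, 53 Flt1 and 26 Aplnr UMIs, and its Kdr level was 60.6 CPM. A Flt1 UMI was in 13 of its 65 CL cells with Kdr (exact interval 11.1% to 31.8%) and 32 of the 317 without (7.01% to 14%). With so few cells elsewhere, no comparison between libraries can be made for it.

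Over 33 profiles (11 classes in 3 libraries, which share their libraries and depth), the genes whose log2(CPM + 20) ran most like each of the 9 genes with at least 100 UMIs (Apln had fewer) were, as a description by Pearson r, Cdh5 (0.97) for Kdr, Adgrf5 (0.98) for Flt1, Ebf3 (1.00) for Tek, Acer2 (0.99) for Esm1, C1qtnf9 (0.99) for Aplnr, Serpine2 (0.97) for Angpt1, Pacsin3 (0.98) for Angpt2 and Aoc3 (0.97) for Pgf. Vegfa had no close match among 6667 genes, with Spry2, an inhibitor of receptor tyrosine kinase signalling, at 0.71.

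Of 19 hypoxia response genes in ASPC-like cells, 3 were past 1.5-fold higher and 1 lower for CL over saline, beside 15% and 8.16% of all genes, and 1 was higher and 2 lower for cold over saline, beside 9.22% and 6.35%. Ldha, a glycolytic enzyme gene, was at 244 CPM in CL and 125 CPM in saline, Kdm3a at 18.2 CPM in CL and 29.7 CPM in saline, Hk2 at 82.7 CPM in cold and 176 CPM in saline, and Adm, which encodes the vasodilator adrenomedullin, at 50.2 CPM in cold and 31.2 CPM in saline.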
